A study of Homo sapiens with 6 samples.

Results

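The introns of the cytoplasmic ribosomal protein genes were followed in K562 cells, a human leukaemia cell line, after knockdown of ZRSR2. An intron was taken where it lay inside a protein-coding gene whose symbol is RPL or RPS followed by a number, or RPLP0, RPLP1, RPLP2 or RPSA, on the strand of that gene, and where it had at least 50 reads on average per library. The RPS6K kinases, the mitochondrial ribosomal proteins and pseudogenes were left out. The choice used gene names, position and read depth, and none of the differences between groups, although it names 1 intron of RPL4 as included. It gave 334 of the 241593 introns listed for each library, in 84 genes, with 207 introns in 52 genes of the large subunit and 127 in 32 genes of the small subunit. Without the read minimum the rule gave 357 introns, and of the 23 left out 8 were in RPL3L, 12 in RPS4Y1 and RPS4Y2 and 3 elsewhere. The shallowest intron kept, in RPS29, had 114.667 reads on average, and the deepest one left out, in RPL3L, had 40.8.

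All 6 libraries came from K562 cells, 2 carrying a control shRNA (Con_sh), 2 a first shRNA against ZRSR2 (ZRSR2_sh1, sh1 below) and 2 a second one (ZRSR2_sh2, sh2 below), with no other allele or agent in the labels. Each group had 1 library from experiment 1, called its first library below, and 1 from experiment 2, its second. Whether the 2 libraries of each group stem from independent cultures is not in the labels, so p-values measure the spread between these samples, which may be technical. In the tests per intron or gene, that spread is also drawn in part from all others in the fit. A small p therefore does not rest on the 2 libraries of a group alone. For each intron the tables gave reads across its 5′ and 3′ boundaries, spliced reads whose gap spans it, and a retention percentage, which is 100·B/(B + 2·S) for B boundary and S spliced reads.

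Ribosomal proteins assemble with ribosomal RNA into the small and the large ribosomal subunit, and their genes are among the most strongly expressed in growing cells. Most of their mRNAs start with a C followed by a stretch of pyrimidines, the TOP motif, through which their translation is controlled together. Many small nucleolar RNAs (snoRNAs), which guide the chemical modification of ribosomal RNA, are cut out of the spliced introns of these same genes, and loss of a single ribosomal protein gene copy can block red cell formation in Diamond-Blackfan anaemia. ZRSR2 is a splicing factor of the minor spliceosome, the machinery for the rare U12-type introns, where it helps to find the 3′ splice site.

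Bases around the transcription start are shown for genes on which the results below turn and for 3 genes linked to defects of red cell formation (RPS14, RPS19 and RPL35A), to show an element that many of these genes have outside their introns. Each sequence is from RefSeq on GRCh38.p14 and runs 5′ to 3′ on the strand of the gene over 25 bases, 10 before the start and 15 from it on, with the longest run of C and T in capitals. RPL4 is at chr15:66504841-66504865 on the minus strand, RPS12 at chr6:132814559-132814583 on the plus strand and RPL11 at chr1:23691796-23691820 on the plus strand. RPS14 is at chr5:150449725-150449749 on the minus strand, RPS19 at chr19:41860245-41860269 on the plus strand and RPL35A at chr3:197950180-197950204 on the plus strand.
RPL4: cgggagtggtaagcaCTTCCTTTTC
RPS12: cggatgaggCCTCTTTCCCTgccgc
RPL11: gctccgCTTTCTCTTCCTgctctcc
RPS14: ccctcccaCTCTCTCTTTCCggtgt
RPS19: ccccgtcgTTCCCTTTCCCCTggct
RPL35A: gggcctcgTCCTTCTCTTaccgcca
The RPL4 start listed here is an A and lies before its run, while each other start shown is a C inside the run. RPL11 and RPS19 each have a second start in the table, whose longest runs are 5 and 6 bases. Among the 86 starts of the 70 ribosomal protein genes in that table, 55 (64.0%) had a run of at least 8 C or T bases on the gene's strand, against 11.1% of all 35116 starts. The first base was C in 62.8% of these starts and in 14.7% of all starts.

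ZRSR2 had summed spliced reads of 27.8 and 23.5 CPM (summed reads scaled by library size) with Con_sh, 10.6 and 10.7 with sh1 and 10.3 and 12.8 with sh2, so all 4 knockdown libraries lay below both controls (log2 fold change -1.21, SE 0.174, edgeR adjusted p = 0.572). Spliced reads over all introns came to 82986327 to 101120454 per library and boundary reads to 4387311 to 5199693. The ribosomal protein introns took 9002043 to 11800563 of the spliced reads, and their median boundary count ranged from 204 to 295.5 per library. All 12 markers of K562 cells on the list used had at least 10 CPM in every library. Their summed level was 4842 to 6539 CPM with Con_sh, 6078 to 12553 with sh1 and 9170 to 20939 with sh2. Markers of lymphoid, mature myeloid and stromal or epithelial cells summed to 31.1 to 87.6, 15.6 to 38.8 and 326 to 827 CPM over the 6 libraries. In bulk RNA fewer cells of a type and less RNA per cell cannot be told apart, and the part of these marker levels in the results was not tested. Ribosomal protein genes have many processed pseudogenes, and how reads that match several places were treated is not given in the sources used here, so all counts of these genes are uncertain to that extent.

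Introns of ribosomal protein genes were deeply covered and nearly all spliced. Their median depth was 31039 reads, 305 of the 334 had at least 5000 reads, and their median length was 517 nt. The shortest entry, kept by the rule, is listed at 1 nt, too short for a spliced intron, and the next at 73 nt. Median retention was 0.401% and 0.540% with Con_sh, 0.554% and 0.485% with sh1 and 0.417% and 0.557% with sh2. The groups overlapped, and the knockdown mean was 0.0331 percentage points above the control mean (two-sided exact permutation test over libraries, p = 0.6, with 0.0667 the smallest p that 4 against 2 libraries allow). Within experiment 1, sh1 was 0.153 and sh2 0.0163 points above the control, and within experiment 2 sh1 was 0.0545 points below it (-0.0545) and sh2 0.0178 above it.

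A mean control retention under 1% was found for 234 of the 334 introns (70.1%), against 44.4% of the other introns with at least 50 reads. Another 86 lay between 1% and 10%, and 14 at 10% or above. In the other introns with at least 50 reads the median was 1.15% to 1.41% per library, and in the other 1777 introns with at least 5000 reads it was 0.510% to 0.628%, beside 0.362% to 0.525% for the 305 ribosomal protein introns of that depth. The 357 introns of mitochondrial ribosomal proteins, which form the separate ribosome of mitochondria, had medians of 1.07% to 1.49%. In 89 of the 334 introns (26.6%) 1 boundary had at least 5 times the reads of the other, against 30.3% of the other introns with at least 50 reads. The 89 take in any intron without boundary reads, such as that of RPL3L described below, while the 30.3% leaves such introns out. Where there are boundary reads, the percentage of these introns rests mainly on 1 end. These levels are a description, with no test.

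Median retention of most kinds of ribosomal protein intron lay in overlapping ranges. Per library, it was 0.412% to 0.581% in the large and 0.366% to 0.541% in the small subunit. First introns had 0.257% to 0.480%, last ones 0.312% to 0.467% and those between 0.417% to 0.563%, counted among the 299 introns that overlap none with more spliced reads. The other 35, which overlap such an intron and are alternative forms, had 1.75% to 2.40%.

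Of the 14 introns at 10% or above in the control, all but 3 overlap an intron with more spliced reads. Spliced reads of the deeper intron count for such a form only where the gap spans the whole form. Its percentage is therefore not a share of all RNA of the gene. A 17226 nt intron listed inside RPS24 (chromosome 10, 78037305 to 78054530), a small-subunit gene, had a control retention of 96.4% and 90.9%. An intron of RPS29 (chromosome 14, 49586050 to 49598399), another small-subunit gene, had 72.3% and 92.6%, and one of RPL5 (chromosome 1, 92834914 to 92840550), which holds SNORD21, had 81.7% and 73.3%. RPL5 is a large-subunit protein that binds 5S ribosomal RNA. These 3 introns rested on 115 to 278 reads on average, of which most lay at the boundaries. The 3 with no deeper overlapping form were RPL22L1 intron 2 (22.3% and 22.8%), RPL34 intron 6 (18.8% and 23.2%) and RPL10A intron 3 (13.6% and 12.2%, at 29609 reads on average).

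Among the introns with the most spliced reads the lowest control retention was in RPL22, RPL37A and RPL7, which all encode large-subunit proteins. RPL22 at chromosome 1, 6193055 to 6197651, had 0.0161% and 0.0253% with Con_sh, 0.0229% and 0.0310% with sh1 and 0.0164% and 0.0319% with sh2. RPL37A at chromosome 2, 216499399 to 216499948, had 0.0315% and 0.0600% in the control, and RPL7 at chromosome 8, 73292406 to 73292688, had 0.0575% and 0.0464%. In these 3 introns the knockdown and control values overlapped.

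The intron that rose most clearly was in RPL4, a large-subunit protein whose gene on the minus strand of chromosome 15 has 9 introns here. Intron 3 from the 5′ end (66502751 to 66503057, 307 nt), which holds SNORD16, was retained at 0.580% and 0.657% with Con_sh, 7.64% and 3.75% with sh1 and 3.63% and 2.91% with sh2. Every knockdown library lay above both controls, with means of 0.619% ± 0.0547 (SD, n = 2) for Con_sh, 5.70% ± 2.74 with sh1 and 3.27% ± 0.507 with sh2. The log2 fold change, here that of the ratio of boundary to spliced reads, was 2.81 (SE 0.281) for both shRNAs together, 3.19 (SE 0.325) for sh1 and 2.43 (SE 0.320) for sh2. Adjusted p was 1.84e-19, 1.28e-18 and 1.29e-10 by edgeR's quasi-likelihood test with Benjamini-Hochberg adjustment over 134078 introns. The size of this p depended on the setting, at the same log2 fold change of 2.81 over both shRNAs. By edgeR it was 8.40e-31 with the experiment as a replicate block and 0.00315 among introns covered to at least 0.95 of their length. With DESeq2 it was 1.91e-07.

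Both boundaries of this RPL4 intron moved together. One boundary had 194 and 306 reads with Con_sh, 2391 and 1567 with sh1 and 1713 and 1289 with sh2. The other had 154 and 190, then 1463 and 868, then 1135 and 696. Spliced reads stayed at 23310 to 37836 in the 6 libraries, and the whole intron was covered by reads in each.

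The neighbouring second intron of RPL4 (66503165 to 66503357, 193 nt), which holds SNORD18A, rose as well, from a lower level. It was retained at 0.141% and 0.161% with Con_sh, 0.846% and 0.343% with sh1 and 0.774% and 0.439% with sh2. No knockdown value overlapped the controls, and the log2 fold change was 1.90 (SE 0.289, edgeR adjusted p = 5.32e-08) over both shRNAs, 1.85 (SE 0.333) in sh1 and 1.96 (SE 0.331) in sh2. With DESeq2 the adjusted p over both shRNAs was 0.0937, above the threshold of 0.05, and without the first sh1 library the sh1 value was 1.19 with an edgeR adjusted p of 1. Among introns covered to at least 0.95 of their length, the edgeR adjusted p was 0.126 in sh1 and 0.117 in sh2. Counting each intron's weaker boundary 2 times instead of both boundaries gave 0.0940 and 0.0910. DESeq2 gave 0.568 in sh1 and 0.354 in sh2. Under these 3 settings the log2 fold change in sh1 and sh2 was 1.85 to 1.99.

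The other 7 RPL4 introns did not pass the test in any contrast. The fourth, which holds SNORD18B, had 0.171% and 0.154% with Con_sh, 0.327% and 0.217% with sh1 and 0.183% and 0.290% with sh2. All its knockdown values lay above the controls, with a log2 fold change of 0.61 (unadjusted p = 0.0421, edgeR adjusted p = 1). The sixth, which holds SNORD18C, had 0.684% and 0.387% in the control against 0.537% to 1.07% in the knockdown. The first intron stayed between 0.0456% and 0.0842%, and the seventh, with the highest control percentage, between 1.13% and 1.55%. Over all libraries the seventh had 4876 reads at 1 boundary and 387 at the other, so its percentage rests mainly on 1 end. For the third intron the difference between sh1 and sh2 was 0.76 (SE 0.316, unadjusted p = 0.0165, edgeR adjusted p = 1).

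**Figure D1:**
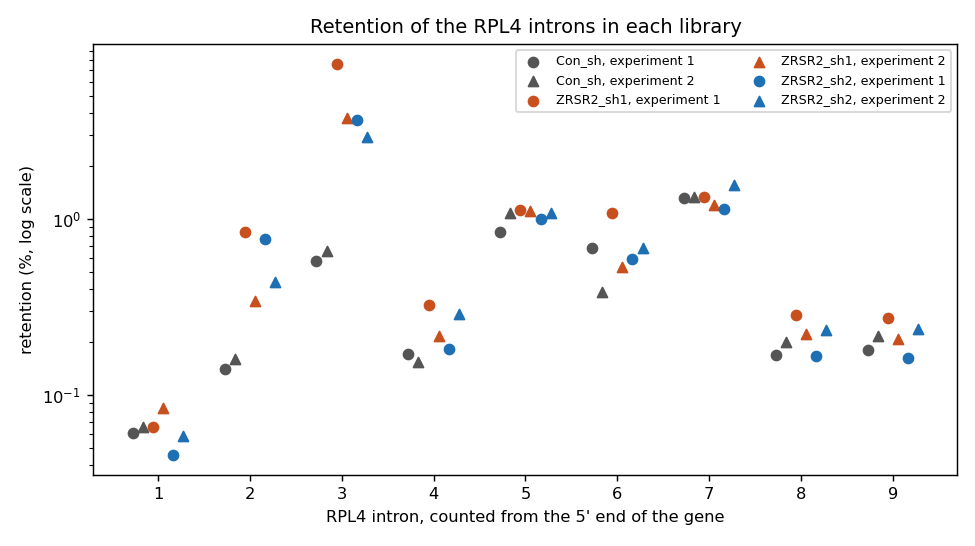
Retention in percent on a log scale (y axis) of the 9 RPL4 introns, numbered from the 5′ end of the gene (x axis), with 1 point per library, colour for the group and shape for the experiment. At introns 2 and 3 all 4 knockdown libraries lie above both controls, and at intron 3 they sit between 2.91% and 7.64%.

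Over all ribosomal protein genes, 3 of 334 introns were called more retained and 0 less retained with both shRNAs pooled, at an adjusted p under 0.05 (edgeR). Of all introns tested, 0.33% were called more retained and 0.0209% less retained. In sh1 3 were more and 0 less retained, beside 0.292% and 0.0104% of all introns. In sh2 2 were more and 1 less retained, beside 0.266% and 0.0201%. With the experiment as a replicate block the counts were 4 more and 1 less retained over both shRNAs (0.497% of all introns in either direction), 4 and 0 in sh1 (0.423%) and 4 and 1 in sh2 (0.443%). DESeq2 called 1 in each of these contrasts, intron 3 of RPL4. Among all introns that it gave an adjusted p, it called 0.194% of 102884 (both), 0.166% of 95086 (sh1) and 0.0992% of 84688 (sh2).

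The 4 introns called in at least 1 contrast lay in RPL4 (2), RPS2 and RPS12, which left 81 of the 84 genes without one. At an unadjusted p under 0.05, 18 of 334 (5.39%) differed over both shRNAs, beside 4.44% of all introns, 15 in sh1 (beside 4.09%) and 21 in sh2 (beside 4.5%). All 4 knockdown libraries were above both controls for 20 introns (5.99%, beside 7.28% of all) and below them for 9 (2.69%, beside 4.11%). Outside RPL4 these 20 included 3 overlapping introns of RPL35 and 2 of RPL27, none of them called. The median log2 fold change of the 334 introns was 0.10 over both shRNAs, 0.09 in sh1 and 0.09 in sh2, beside 0.08, 0.02 and 0.16 over all introns. Leaving out the first control library turned these 3 medians to -0.05, -0.05 and -0.03. That library held the lowest value of 136 of the 334 introns, and the second sh2 library the highest of 131 (39.2%).

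**Figure D2:**
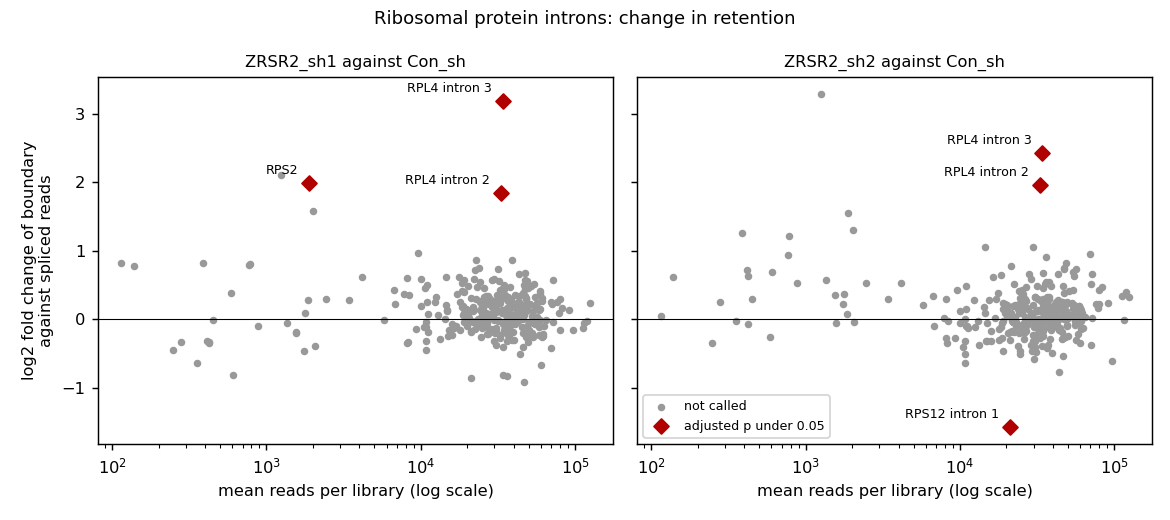
Log2 fold change of the boundary to spliced read ratio (y axis) against mean reads per library on a log scale (x axis) for the ribosomal protein introns with at least 1 boundary read, in sh1 (left) and sh2 (right) against the control. Diamonds mark the introns called at an adjusted p under 0.05: RPL4 introns 2 and 3 stand above the deep introns in both panels, RPS2 is marked in sh1 and RPS12 in sh2.

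The calls in RPS2 and RPS12, both small-subunit genes, rested on the second control library. The called RPS2 intron (chromosome 16, 1962271 to 1962735, 465 nt), an alternative form that spans an exon and holds SNORA10, was retained at 92.4% and 45.3% with Con_sh, 92.5% and 91.4% with sh1 and 89.7% and 89.2% with sh2. The introns at 1962271 to 1962496 and 1962657 to 1962735 each share an end with it. They had 45019 to 68427 and 48226 to 72489 spliced reads per library, which its percentage leaves out. That percentage is therefore not a share of all RPS2 RNA. The second control library alone was low: it had 1335 spliced reads over the called form, against 55 to 92 in the other 5. The log2 fold change was 1.77 (SE 0.399, edgeR adjusted p = 0.00342) over both shRNAs and 1.99 (adjusted p = 0.00495) in sh1. Without that library they were -0.29 and -0.07, both with an adjusted p of 1 by edgeR. Over both shRNAs it was not called among introns with at least 50 reads (edgeR adjusted p = 0.357) nor by DESeq2 (adjusted p = 1). In sh2 it was 1.55 (edgeR adjusted p = 0.143), and 1.62 with the replicate block (adjusted p = 0.000276).

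A similar gap appeared in the overlapping RPS2 intron at 1962657 to 1963148, which holds SNORA64. It was retained at 92.4% and 44.8% with Con_sh, 91.2% and 87.8% with sh1 and 88.3% and 87.0% with sh2, with 1392 spliced reads in the second control library and 66 to 133 elsewhere. It was not called (edgeR adjusted p = 0.0667 over both shRNAs). On the same chromosome, the first intron of RPL3L (1954149 to 1954628), a gene related to RPL3, had 1260 spliced reads in that library and 12 to 37 in the others, while its other 8 introns had 91 to 94 there. It passed the read minimum only through that library, and it had 0 boundary reads in all 6.

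The first intron of RPS12 (chromosome 6, 132814614 to 132814731, 118 nt) was retained at 0.0640% and 0.505% with Con_sh, 0.107% and 0.119% with sh1 and 0.0548% and 0.0854% with sh2. The first control library lay inside the range of the knockdown libraries and only the second one stood above it. There 1 boundary had 214 reads, against 24 to 44 in the other libraries, while the other boundary had 0 to 3 in all. The log2 fold change in sh2 was -1.58 (SE 0.387, edgeR adjusted p = 0.0186), and without the second control library it was 0.11 (adjusted p = 1). It was not called in sh2 among introns with at least 50 reads (edgeR adjusted p = 0.482) nor by DESeq2 (adjusted p = 1). Over both shRNAs it was -1.22 (adjusted p = 0.0640), and -1.25 with the replicate block (adjusted p = 0.00179).

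**Figure D3:**
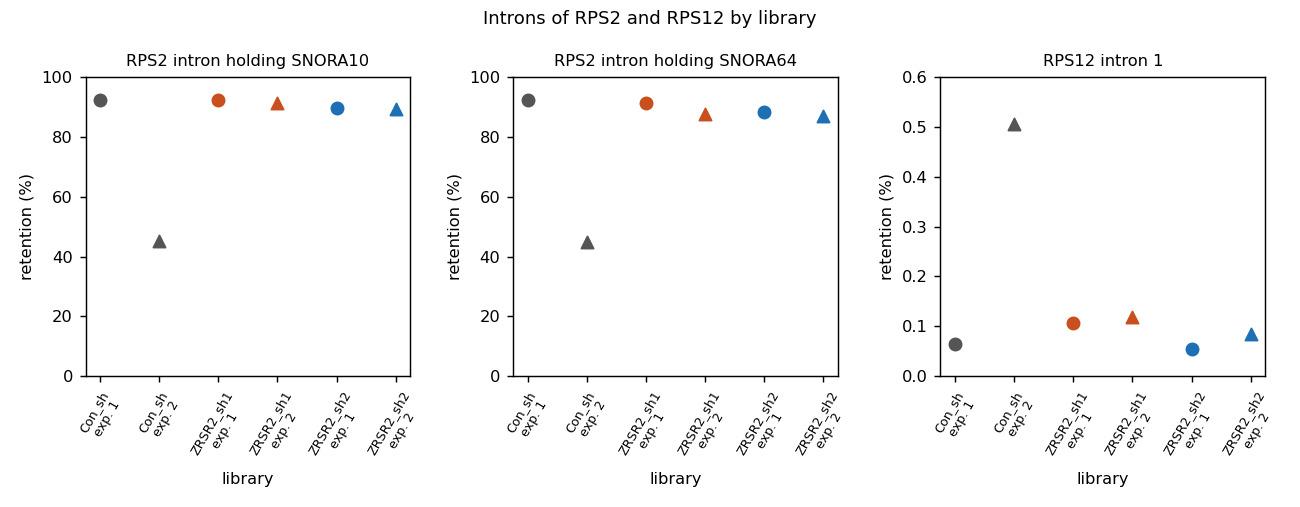
Retention in percent (y axis) by library (x axis) of the RPS2 introns that hold SNORA10 and SNORA64 and of the first RPS12 intron, with 1 point per library. The second control library, at 45.3%, 44.8% and 0.505%, stands apart from the other 5 libraries in each panel.

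Between the shRNAs, 0 of 334 introns differed at an adjusted p under 0.05 by edgeR, where 0.0246% of all introns were more retained in sh1 and 0.0097% in sh2. DESeq2 called 0 as well (0.00373% of all), and 18 (5.39%) had an unadjusted edgeR p under 0.05, beside 3.83% of all introns. The smallest p was in the first intron of RPL11 (chromosome 1, 23692760 to 23693806), a large-subunit protein of the 5S particle, retained at 0.0695% and 0.0931% with Con_sh, 0.0548% and 0.0767% with sh1 and 0.0972% and 0.233% with sh2. The next was the third intron of RPL24 (chromosome 3, 101682908 to 101685817), a large-subunit gene, with 0.0714% and 0.0787%, then 0.0628% and 0.0685%, then 0.0805% and 0.270%. In both the second sh2 library was highest, and the log2 difference of sh1 from sh2 was -1.23 (SE 0.348, edgeR adjusted p = 0.469) and -1.24 (SE 0.364, adjusted p = 0.579).

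RPLP1 encodes a protein of the stalk of the large subunit. Its alternative intron at chromosome 15, 69453021 to 69455427, was retained at 43.3% and 54.5% with Con_sh, 31.7% and 39.1% with sh1 and 48.9% and 71.3% with sh2. Both sh1 libraries lay below and the sh2 libraries overlapped the controls, with a log2 difference between the shRNAs of -1.50 (SE 0.475, edgeR adjusted p = 0.787). With the replicate block 2 introns passed between the shRNAs, those of RPL11 (adjusted p = 0.0415) and RPLP1 (adjusted p = 0.0427), beside 0.0865% of all introns in that fit. Without the first sh2 library the introns of RPL11 (-1.83, edgeR adjusted p = 0.0093) and RPL24 (-2.04, adjusted p = 0.00177) passed.

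A snoRNA gene lay in 54 of the 334 introns, in 25 genes. Of the 4 called introns 3 hold one: RPL4 introns 2 and 3 and the RPS2 intron whose call rests on 1 library. The median log2 fold change over both shRNAs was 0.04 in the 54 introns with a snoRNA and 0.11 in the 280 without, and 30 of 54 and 194 of 280 lay above 0. Outside overlapping forms, retention of snoRNA-holding introns had a median of 0.415% to 0.554% per library (49 introns), beside 0.321% to 0.494% for the 250 others. Besides the RPL5 and RPS2 forms given above, the most retained in the control were RPS13 intron 3 with SNORD14B (7.80% and 7.42%) and the RPL7A intron with SNORD36C (3.32% and 3.80%). In RPS13 the knockdown libraries ranged from 7.43% to 8.09%.

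An intron inside RPL23A but listed on the opposite strand (chromosome 17, 28721918 to 28722409) is not among the 334. Its retention was 0.270% and 0.374% with Con_sh, 0.872% and 0.474% with sh1 and 0.695% and 0.589% with sh2. It was not called (log2 fold change 1.02, SE 0.279, edgeR adjusted p = 0.0721).

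Spliced reads summed per gene over separate introns stood in for gene expression. No ribosomal protein gene passed the test. In each of the 4 contrasts edgeR called 0 of 84 and 0% of all 17623 genes, ZRSR2 included. DESeq2 also called 0 of 84, beside the following shares of all genes that it gave an adjusted p. They were 1.34% of 13523 over both shRNAs, 0.798% of 15914 in sh1, 1.31% of 13864 in sh2 and 0.422% of 16599 between the shRNAs. At an unadjusted p under 0.05 edgeR gave 4, 4, 0 and 5 of the 84, beside 8.23%, 6.69%, 8.32% and 5.37% of all genes. The median log2 fold change of the 84 genes was -0.10 over both shRNAs, -0.21 in sh1, -0.02 in sh2 and -0.18 for sh1 against sh2, beside -0.01, -0.01, -0.00 and -0.01 over all genes. Without the first control library the median of the 84 was -0.01 over both shRNAs, -0.10 in sh1 and 0.07 in sh2, and without the second it was -0.19, -0.28 and -0.11. With all 6 libraries the fold change lay below 0 in 63, 75, 45 and 78 of the 84, where 51.2%, 50.6%, 50.2% and 51.4% of all genes lay below 0. The contrasts share libraries, so these counts are not independent of each other.

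Both subunits had similar values. Over both shRNAs the median was -0.11 in the 52 large-subunit and -0.10 in the 32 small-subunit genes, and in sh1 it was -0.20 and -0.23. The highest levels per intron in the control were in RPS18 (1282 CPM per intron), RPL37A (1005) and RPLP1 (919), and the lowest in RPL3L (1.38), RPL39L (11.9) and RPL26L1 (12.5), which are copies related to RPL3, RPL39 and RPL26.

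The lowest fold changes were seen in RPL3L, RPL39L, RPS18 and RPL29. RPL3L had 3.15 and 21.6 CPM with Con_sh, 1.35 and 3.73 with sh1 and 3.08 and 4.28 with sh2, and only the second control library, with the intron described above, stood out. RPL39L had 29.996 and 17.7 CPM with Con_sh, 13.8 and 15.6 with sh1 and 17.3 and 16.8 with sh2. All its knockdown libraries lay below both controls, with a log2 fold change of -0.59 (SE 0.231, edgeR adjusted p = 0.572).

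RPS18, a protein of the small-subunit head, had 7398 and 5426 CPM with Con_sh, 4479 and 4911 with sh1 and 5144 and 4985 with sh2, again with no overlap (log2 fold change -0.39, SE 0.159, edgeR adjusted p = 0.587). RPL29, a large-subunit protein, had 443 and 330 CPM, then 257 and 284, then 335 and 314. Its first sh2 library lay above the second control (log2 fold change -0.38, edgeR adjusted p = 0.585). For RPS18 and RPL29 the first control library was the highest of all 6.

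The highest fold changes were in RPL7, RPL19, RPL11 and RPL13A, all of the large subunit. RPL7 had 1503 and 2067 CPM with Con_sh, 2145 and 2059 with sh1 and 2286 and 2286 with sh2. Its first control library was the lowest and the second lay inside the sh1 range, with a log2 fold change of 0.30 (SE 0.161, edgeR adjusted p = 0.648). RPL19, RPL11 and RPL13A had 0.18, 0.15 and 0.13, with adjusted p of 0.777, 0.777 and 0.828 by edgeR. RPL4 had 3051 and 3298 CPM with Con_sh, 2710 and 2955 with sh1 and 4063 and 3559 with sh2. Its sh1 libraries lay below and its sh2 libraries above both controls, and the log2 difference of sh1 from sh2 was -0.43 (unadjusted p = 0.027), which no test called after adjustment (DESeq2 adjusted p = 0.397).

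**Figure D4:**
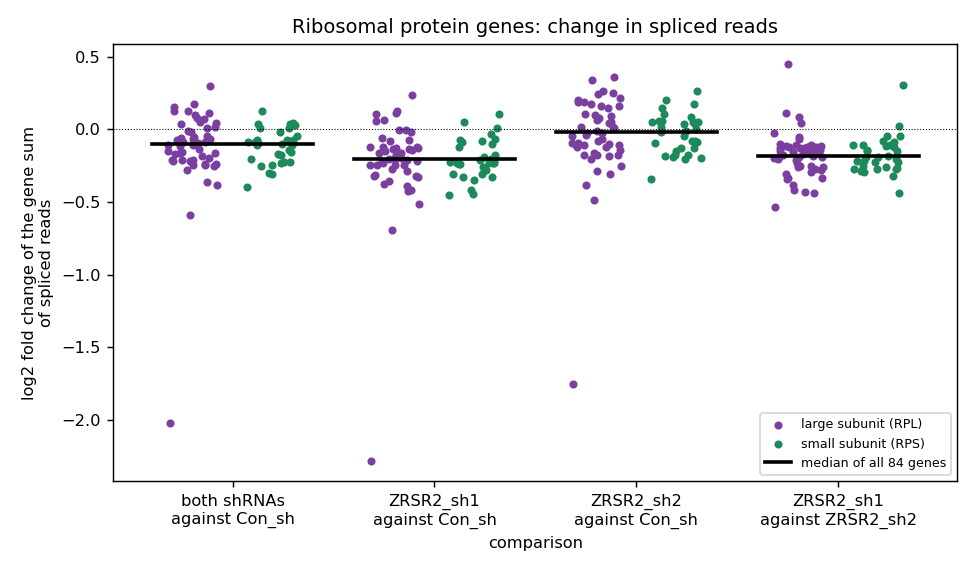
Log2 fold change of the summed spliced reads (y axis) of the 84 ribosomal protein genes in 4 comparisons (x axis), with 1 point per gene, colour for the subunit and a bar at the median of all 84. The medians are -0.10, -0.21, -0.02 and -0.18, no gene passed the test, and the lowest point in the 3 comparisons with the control is RPL3L.

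Of the 19 ribosomal protein genes linked to Diamond-Blackfan anaemia, 0 of 78 tested introns and 0 of 19 gene sums were called in any contrast by edgeR with all 6 libraries and no replicate block. Of all introns, 0.33% were called more retained over both shRNAs, 0.292% in sh1, 0.266% in sh2 and 0.0246% in sh1 against sh2. Of all gene sums, 0% were called. Against these shares, 0 calls in a list of this size do not set it apart. Among the 78 introns, the first of RPL11 passed between the shRNAs with the replicate block and without the first sh2 library, as given above. Over both shRNAs 17 of the 19 sums lay below 0, beside 63 of the 84 and 51.2% of all genes, with a median of -0.11. The lowest was RPS28, a small-subunit protein, with 1953 and 1462 CPM with Con_sh, 1323 and 1238 with sh1 and 1600 and 1390 with sh2 (a log2 fold change of -0.30 with an SE of 0.159, edgeR adjusted p = 0.641). RPS19, the first gene linked to the disease, had 2012 and 1535 CPM, then 1474 and 1389, then 1816 and 1618. In both genes the sh2 libraries overlapped the controls and the sh1 libraries lay below them. RPS26 and RPL11 were the genes of the list above 0 in sh1 (0.11 and 0.10), RPS26, at 397 and 434 CPM in the control and 477 and 419 in sh1.

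RPL5 and RPL11 form with 5S ribosomal RNA a particle that binds MDM2, the ligase that degrades p53, and RPL23 also binds MDM2. RPS14 is the ribosomal protein gene lost in the 5q- syndrome. With MDM2 itself, 0 of their 35 introns and 0 of 5 gene sums were called in any contrast by edgeR with all 6 libraries and no replicate block. Of all introns, 0.33% were called more retained over both shRNAs, and of all gene sums 0% were called, so these counts do not set the list apart. The first RPL11 intron passed between the shRNAs under the settings given above. RPL5 had 1919 and 2038 CPM with Con_sh, 1959 and 1974 with sh1 and 2315 and 2115 with sh2. RPL11 had 1624 and 1946, then 1903 and 1932, then 2147 and 1966. In both genes the sh1 libraries lay inside the range of the controls and the sh2 libraries above it. RPL23 and RPS14 were at -0.22 and -0.16 on the log2 scale over both shRNAs. MDM2 had 28.9 and 35.1 CPM with Con_sh, 42.4 and 40.4 with sh1 and 31.8 and 36.7 with sh2 (log2 fold change in sh1 0.37, over both 0.24, edgeR adjusted p over both 0.692).

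Ribosomal protein genes took 13.3% and 12.02% of the summed spliced reads with Con_sh, 11.2% and 11.2% with sh1 and 13.4% and 11.9% with sh2. Both sh1 libraries were the lowest of the 6, and the sh2 libraries lay close to the control of the same experiment. The knockdown mean was 0.778 percentage points lower (-0.778, two-sided exact permutation test over libraries, p = 0.533). Within experiment 1 the difference from the control was -2.17 points in sh1 and 0.0127 in sh2, and within experiment 2 it was -0.856 and -0.0982.

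**Figure D5:**
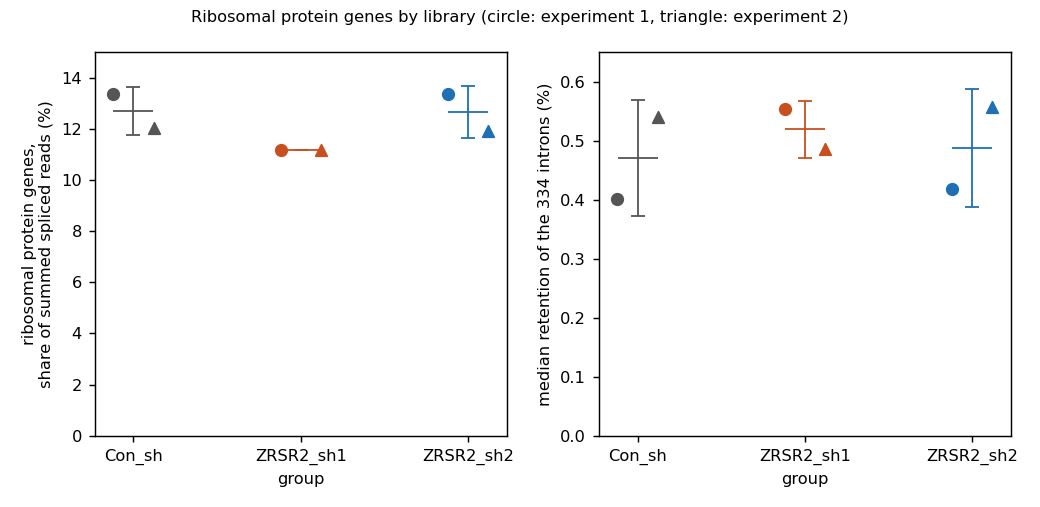
Share of the summed spliced reads in ribosomal protein genes in percent (left) and median retention of their 334 introns in percent (right) by group (x axis), with 1 point per library and the mean with its SD (n = 2). The sh1 libraries share a value of 11.2% in the left panel, and the groups overlap in the right one.

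RACK1, a scaffold protein that sits on the small subunit, was not among the members because its symbol begins with neither RPL nor RPS. An intron of it, described because it passed the test, was called in sh1 (chromosome 5, 181239583 to 181242169), retained at 61.8% and 67.9% with Con_sh, 91.2% and 90.8% with sh1 and 86.5% and 72.5% with sh2 (a log2 fold change of 2.44 with an SE of 0.573, edgeR adjusted p = 0.0084). All 4 knockdown values lay above the controls.

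Among 1045 introns of 67 ribosome biogenesis factors, which process ribosomal RNA and assemble the subunits, 5 were more and 0 less retained over both shRNAs (edgeR), beside 0.33% of all introns called more retained. They lay in GAR1, LSG1, NAT10 and NOP2, the last with 2 overlapping introns. The LSG1 intron (chromosome 3, 194648805 to 194650880), in a gene for a late step of large-subunit maturation, was retained at 17.5% and 13.9% with Con_sh, 62.0% and 30.2% with sh1 and 55.3% and 36.3% with sh2. The GAR1 intron (chromosome 4, 109818091 to 109819000), in a gene of the snoRNA particles that guide pseudouridine formation, had 0.273% and 0.513%, then 4.16% and 2.27%, then 1.57% and 1.16%. In both all knockdown libraries lay above both controls. In sh1 6 introns of these factors were more retained, EFL1 being the further gene, and in sh2 4, beside 0.292% and 0.266% of all introns.

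RNA polymerase I transcribes the ribosomal RNA genes, and 2 of the 174 introns of its genes, in POLR1E and TAF1C, were more retained over both shRNAs, beside the same 0.33% of all introns. Among 194 introns of translation factors and other TOP genes 0 were called over both shRNAs, and 1, in the import receptor IPO5, was more retained in sh1 (beside 0.292% of all introns). Of 373 introns of mitochondrial ribosomal proteins 0 were called over both shRNAs and 1, in MRPS15, was more retained in sh2 (beside 0.266%). No gene sum of these lists was called by edgeR with all 6 libraries and no replicate block, beside 0% of all genes. The median log2 fold change of the gene sums over both shRNAs was -0.16 in the biogenesis factors, -0.10 in the polymerase I genes, 0.02 in the translation factors and -0.21 in the mitochondrial ribosomal proteins, beside -0.10 in the cytoplasmic ones.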

How the data were processed

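PolyA RNA libraries were sequenced from 6 samples, per the labels' protocols; the aligner, the counting program and its use of strand are not given in the sources used here. Per the file headers, the deposited tables hold unnormalised counts of boundary and spliced reads, a covered fraction and a percent (MSI), called retention here; recomputed from the counts, the deposited percent deviated by at most 2.8e-14. The deposited spliced count takes in every spliced read whose gap spans the intron, which lowers the retention of introns lying inside others and mixes reads of overlapping and antisense genes. It leaves out reads spliced over a shorter intron inside a longer form, which raises the retention of the longer form. The submitters' processing notes name hg19, but positions behaved as GRCh38 (95.6% of introns inside a RefSeq gene, 62.6% and 62.9% after shifts of 100000 nt), so gene names, and positions with starts counted from 1, are on GRCh38. Of 87 ribosomal protein genes, strand came from the RefSeq promoter table for 70, from the majority of their introns for 16 and from general knowledge for 1.

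Introns with at least 20 reads on average (134078) were tested with edgeR 4.0.16 (quasi-likelihood) on paired boundary and spliced counts, with the library as a factor, all 6 libraries sharing 1 estimate of the spread and Benjamini-Hochberg adjustment at 0.05. Gene sums left out 2468 introns whose counts repeat those of another gene's intron (0 in ribosomal protein genes), passed filterByExpr (17623 genes), were scaled with TMM (0.973 to 1.02) and were tested with edgeR and with DESeq2 1.42.0. R 4.3.3, Python 3.11.15 and scipy 1.17.1 were used, and the fits were tested on simulated data. The share of summed spliced reads and the median retention were compared by exact permutation over libraries.

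The labels call the replicate number an experiment, which was taken as pairing the libraries; differences between experiments correlated between groups at 0.30 to 0.49 over genes and 0.051 to 0.11 over introns. Named introns were those called, the 3 of smallest p per contrast, those of highest and lowest control retention, all of RPL4 and those holding a snoRNA; named genes were the 4 with the largest and the 4 with the smallest fold change, the 3 of highest and 3 of lowest level per intron and the lists given. The members, lists and rules were chosen with earlier results of these data known.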

Additional observations from a re-analysis of the deposited data

How the results depend on the processing

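The third RPL4 intron was called in each contrast with the control under all 13 settings run, at log2 values from 2.27 to 3.73. Counts of called ribosomal protein introns were 3, 3, 3 and 0 over both shRNAs, in sh1, in sh2 and between them. In the same order they were 5, 4, 5 and 2 with the replicate block and 1, 1, 1 and 0 with DESeq2. They were 2, 2, 2 and 0 among introns with at least 50 reads, and 4, 3, 3 and 0 among those with at least 1 read in total. With introns covered to at least 0.95 of their length they were 2, 1, 1 and 0. Counting each intron's weaker boundary 2 times gave 3, 2, 2 and 0. Leaving out 1 library gave 3 to 5, 1 to 5, 3 to 5 and 0 to 2; the highest counts against the control came without the first control library (5 in each contrast) and, in sh2, also without the first sh2 library, the lowest in sh1 without the first sh1 library, and the 2 between the shRNAs without the first sh2 library. Leaving out 1 library, the RPS2 intron ranged from -0.29 (without the second control library) to 3.57 (without the first) over both shRNAs and from -0.074 to 3.79 in sh1, and the RPS12 intron from -2.88 (without the first) to 0.11 (without the second) in sh2. The cause of these changes was not tested. None of the 84 ribosomal protein gene sums was called under any of the 12 settings run. The knockdown difference in the share of spliced reads ranged from -1.44 to -0.113 percentage points and that in median retention from -0.0363 to 0.102 without 1 library. Within experiments 1 and 2 the differences were -1.08 and -0.477 points in the share and 0.0845 and -0.0183 in median retention. With 1 library per group in each experiment, their averages equal the main values of -0.778 and 0.0331 by construction and are no further check. With 2 libraries a group, precision is limited by their number, and introns such as RPS12 intron 1 rest on few boundary reads.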
